A study of Homo sapiens with 6 samples.

Results

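Ribosome biogenesis genes were followed in DU145 cells with and without taraxasterol (TAX), a plant triterpene. The group holds 40 genes of the 23062 listed in each library, chosen by symbol as nucleolar, rRNA processing and RNA polymerase I genes that are known as targets of the transcription factor MYC. The choice was made after earlier results of the same libraries were known, among them a higher level of MYC target genes after TAX, so every difference of these genes between TAX and control is given as a description and supports nothing by itself. DU145 is an human prostate carcinoma line grown out of a metastasis in the brain, and the labels give the genotype of all cultures as WT. The 3 control cultures were kept in MEM medium for 48 h and the 3 TAX cultures received TAX at the IC50 of these cells for 48 h, and total RNA was sequenced from each. TAX was dissolved in DMSO, and since no source used here says whether the control cultures received DMSO, the solvent and TAX cannot be told apart. No source says that the 3 cultures of a group were grown independently, so any p-value measures the spread between these libraries, which may be technical.

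Ribosomes are built in the nucleolus. RNA polymerase I transcribes the long precursor of the rRNAs, small nucleolar RNAs (snoRNAs) guide its methylation and pseudouridylation as parts of box C/D and box H/ACA particles, and large assemblies of proteins fold, cut and pack it into the small and the large subunit. MYC and its partner MAX bind E-boxes, short palindromic DNA elements, and raise the transcription of many genes of this pathway in growing cells and in tumors.

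The values were taken as FPKM, fragments per kilobase of gene scaled to the depth of the library, which allows levels to be compared between genes. They summed to between 322483 and 363724 per library, and between 3997 and 4798 genes were listed at 0. Read counts were not given, so the depth behind each value is unknown. Control replicate 3 stood apart on a broad scale, since it held the lowest value of 58.0% of the 12359 genes with enough FPKM to be tested. The median of all genes lay at -0.10 in this library against the control mean on the log2(FPKM + 1) scale, and between 0.048 and 0.061 in the other five. The epithelial genes KRT8, KRT18, KRT19, EPCAM and CDH1 together with VIM were detected at 40.7 to 538 FPKM, and KLK3 was listed at 0. Of 8 markers of blood, endothelial and stromal cells, 6 were below 0.03 FPKM in every library. The summed level of the 8 markers was 22.0 to 28.7 FPKM without and 33.9 to 34.9 FPKM with TAX, and its part in the results was not tested. Most of it was CD68, at 20.01 to 26.7 FPKM without and 32.5 to 33.4 FPKM with TAX, while COL1A1 went the other way, at 1.89 to 2.08 FPKM without and 1.42 to 1.48 FPKM with TAX. PTPRC, CD3E, COL1A2 and DCN were at or near 0.

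In control cells the 40 genes ranged from 4.68 FPKM for WDR12 to 450.1 FPKM for NPM1, with a median of 22.3 FPKM and with 22 genes between 15 and 35 FPKM. NPM1, nucleophosmin, which forms much of the outer layer of the nucleolus, had 572, 375 and 403 FPKM in the controls (values are given in the order of replicates 1, 2 and 3 throughout), against 412, 405 and 372 FPKM with TAX. Control replicate 1 stood alone above the other five libraries, and the groups overlapped. NPM1 made up 24.0% to 31.1% of the summed FPKM of the 40 genes in control and 22.7% to 24.2% with TAX. GENCODE 29 lists 45 numbered pseudogenes of NPM1, so part of its reads may have been shared with near-identical copies. Numbered pseudogenes are listed for 9 of the 40 genes. NCL, nucleolin, an early binder of the rRNA precursor, came next with 158 ± 15.04 FPKM (SD, n = 3), followed by FBL with 82.2 ± 5.68, NOLC1 with 65.3 ± 1.56 and GNL3 with 59.1 ± 3.40 FPKM (SD, n = 3 each). The control ranges of these 5 genes did not overlap from one gene to the next. Further down the order the genes ran into each other, and 29 of the 39 neighbouring pairs had overlapping control ranges. At the low end were RRP12 with 9.76 ± 1.58, POLR1A with 6.36 ± 0.812, RRP9 with 6.33 ± 0.486, POLR1B with 6.01 ± 1.19, RCL1 with 5.77 ± 0.500 and WDR12 with 4.68 ± 0.0870 FPKM (SD, n = 3 each). The order was nearly the same after TAX, with a Spearman correlation of 0.992 between the group means of the 40 genes and no gene moving by more than 5 places.

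**Figure D1:**
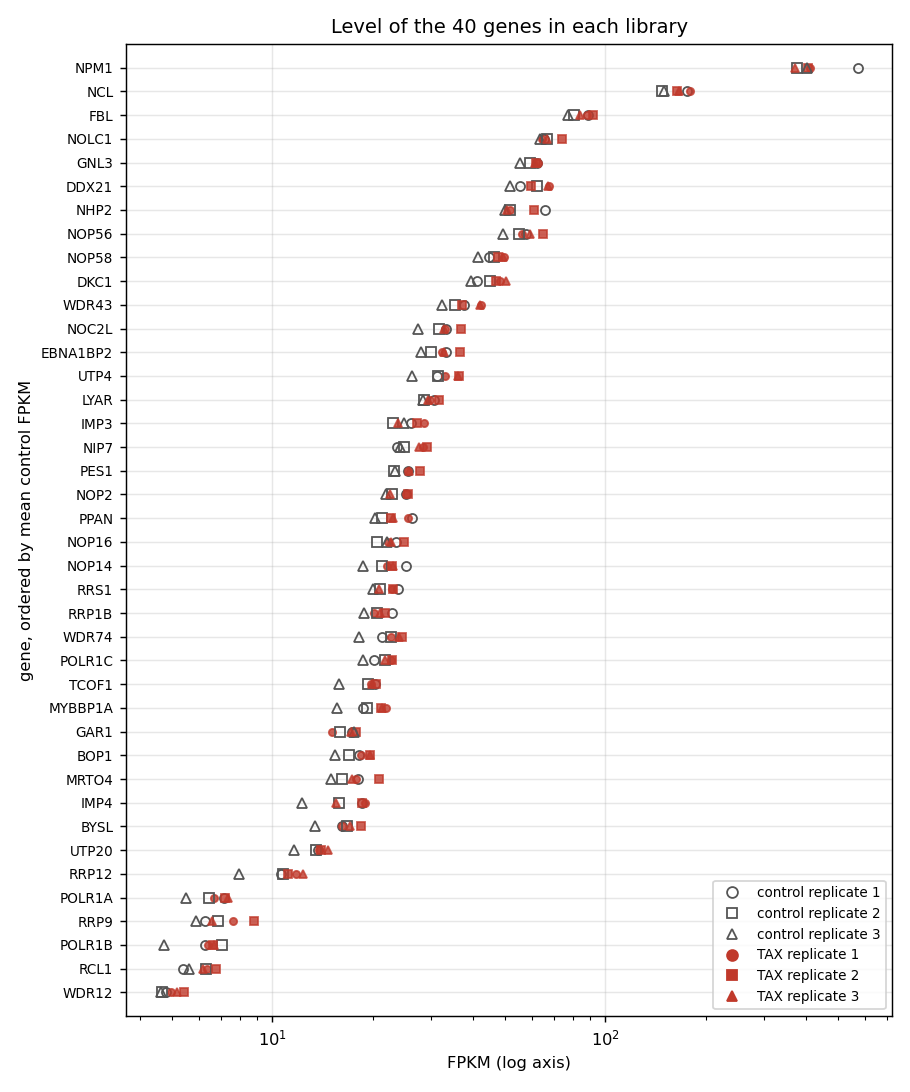
FPKM (log axis) of the 40 genes in each of the 6 libraries, ordered by the mean of the 3 control libraries (open grey symbols, with TAX libraries in filled red). NPM1 is highest at 450.1 FPKM in control and WDR12 lowest at 4.68 FPKM. The symbols of each gene lie close together in comparison with this whole range, but 29 of the 39 neighbouring pairs overlap in their control ranges.

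Proteins that work in one complex did not have equal mRNA levels. Their ratios within a library do not change when all its values are multiplied by the same factor, although quantile normalization can change them. In the PeBoW complex of large subunit assembly, the ratio of WDR12 to PES1 was 0.188, 0.1998 and 0.199 in the controls, against 0.194, 0.196 and 0.201 with TAX. WDR12 thus stood at about the same low ratio in every library, with means of 0.195 ± 0.00663 and 0.197 ± 0.00370 (SD, n = 3 each). BOP1, the third PeBoW protein, stood at 0.703 ± 0.0349 of PES1 in control and 0.732 ± 0.0284 in TAX-treated cells (SD, n = 3 each). Among the box C/D proteins, the ratio of NOP58 to NOP56 was 0.818 ± 0.0400 in control and 0.817 ± 0.0729 in TAX-treated cells (SD, n = 3 each). In the box H/ACA particle the partners of DKC1 had lower mean ratios after TAX. The ratio of GAR1 to DKC1 was 0.420, 0.353 and 0.445 in the controls, against 0.312, 0.3798 and 0.343 with TAX, and that of NHP2 to DKC1 was 1.34 ± 0.235 and 1.12 ± 0.151 (SD, n = 3 each). Both ratios overlapped between the groups. Of the 11 ratios formed, that of NPM1 to NCL was the one without overlap. It was 3.26, 2.53 and 2.68 in the controls, against 2.29, 2.47 and 2.24 with TAX, all lower. The ratios were chosen after values were seen. An exact rank test of 3 against 3 libraries cannot give a p under 0.1, so 1 such ratio of 11 is a description only.

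The promoters were searched for CACGTG, the palindromic E-box, which reads the same on both strands. RefSeq windows on GRCh38.p14, each from 250 bases before to 50 bases after a transcription start, were matched for 33 of the 40 genes. NOLC1, TCOF1, NOP58, RRP12, BOP1, RRS1 and RRP1B were not matched. An E-box was found in at least 1 window of 18 of the 33 genes, 54.5%, against 12.9% of 9405 tested genes and 10.9% of 15842 protein-coding genes with a window. For the 18 genes the E-box nearest to a start lay within 50 bases of it in 17, and after the start in 13. Accordingly, the 50 bases from the start on held an E-box in 39.4% of the 33 genes and in 1.62% of the tested genes, while the 250 bases before it held one in 18.2% and 11.4%. The 95% Wilson interval of the share in the whole window was 38.0% to 70.2% and covers counting error only. Many of these genes are known as MYC targets from work on such sites, so the share was not independent of how they were chosen. The following stretches of 30 bases, given 5′ to 3′ on the strand of the gene with the E-box in capitals, show the element at the start of genes from 5 steps of the pathway.
GNL3: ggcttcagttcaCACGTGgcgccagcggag
FBL: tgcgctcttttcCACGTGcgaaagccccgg
GAR1: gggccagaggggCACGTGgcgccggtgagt
WDR43: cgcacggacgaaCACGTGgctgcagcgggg
RCL1: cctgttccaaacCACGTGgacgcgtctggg
RRP9: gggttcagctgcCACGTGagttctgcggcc
PES1: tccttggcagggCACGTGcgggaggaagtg
MRTO4: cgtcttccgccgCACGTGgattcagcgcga
They lie at chr3:52686026-52686055 (plus strand) for GNL3, chr19:39846356-39846385 (minus) for FBL, chr4:109815781-109815810 (plus) for GAR1, chr2:28894658-28894687 (plus) for WDR43, chr9:4792936-4792965 (plus) for RCL1, chr3:51941892-51941921 (minus) for RRP9, chr22:30591880-30591909 (minus) for PES1 and chr1:19251807-19251836 (plus) for MRTO4.

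UTP20, a very large scaffold protein of the small subunit processome, shows the element in its wider setting. The 250 bases before its start, at chr12:101279855-101280104 on the plus strand (GRCh38.p14), overlap no exon of GENCODE 29, and their E-box, in capitals, begins 10 bases before the start.
UTP20: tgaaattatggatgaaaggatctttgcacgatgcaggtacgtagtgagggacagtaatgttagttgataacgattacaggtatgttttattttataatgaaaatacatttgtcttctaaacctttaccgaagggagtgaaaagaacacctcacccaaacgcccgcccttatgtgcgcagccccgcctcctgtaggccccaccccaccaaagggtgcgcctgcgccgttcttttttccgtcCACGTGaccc
Of genes outside the group, an E-box was found in the windows of 25.0% of 140 other ribosome biogenesis genes and 6.35% of 63 genes of cytosolic ribosomal proteins. A second motif, CCGGAAG or its reverse complement CTTCCGG, the core that ETS factors bind, was found for 39.4% of the 33 genes and 23.8% of the tested genes, and for 42.1% of the 140 other ribosome biogenesis genes and 34.9% of the 63 ribosomal protein genes. Of the most abundant genes, NPM1 and NCL were among the 15 without CACGTG in these windows and FBL, GNL3 and DDX21 among the 18 with it. The median control level was 22.5 FPKM with an E-box and 24.2 FPKM without. The 18 genes with an E-box had a median log2 fold change of 0.14 (range -0.020 to 0.27) after TAX and the 15 without one a median of 0.12 (range -0.16 to 0.22).

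**Figure D2:**
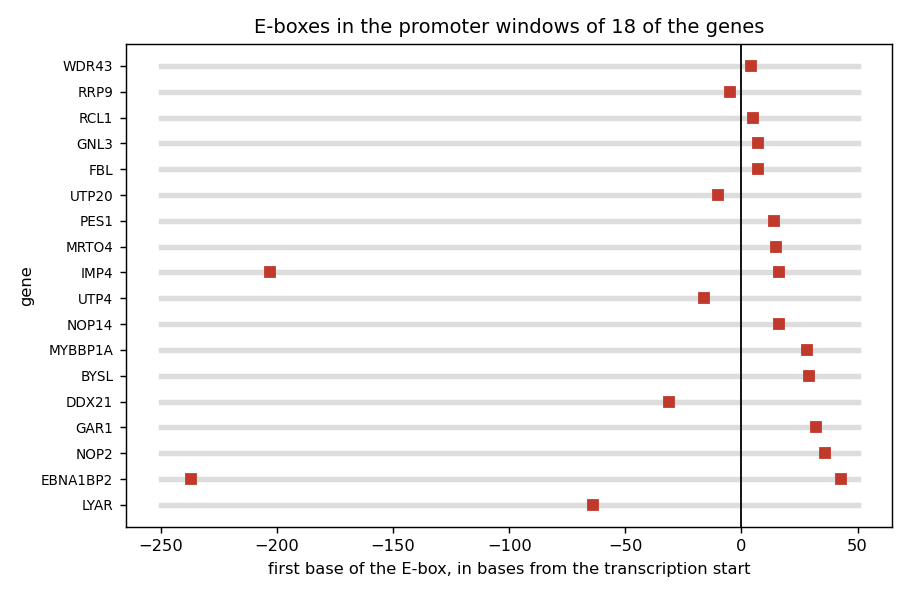
Position of each E-box (red squares) in the promoter windows of 18 genes, in bases from the transcription start whose window holds it. Grey bars span the window from 250 bases before to 50 bases after the start. For 17 genes the nearest E-box lies within 50 bases of a start.

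The hosting of snoRNAs was not used to choose the genes. In GENCODE 29, 8 of the 40 genes (20.0%) contained a snoRNA gene on the same strand, against 1.91% of 11410 tested protein-coding genes matched by name. The same held for 3.77% of 159 other ribosome biogenesis genes and 35.4% of 79 cytosolic ribosomal protein genes. NOP56 on chromosome 20 (2652145 to 2658393) holds SNORA51, SNORD110, SNORD56, SNORD57 and SNORD86, NCL holds SNORA75, SNORD20 and SNORD82, WDR43 holds SNORD53, SNORD53B and SNORD92, and DKC1 holds SNORA36A and SNORA56. The host genes had a median level of 43.0 FPKM in control cells and the other 32 genes one of 21.2 FPKM. After TAX the median log2 fold change was 0.14 for the host genes and 0.13 for the others. The snoRNAs themselves were not analysed here.

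Next, limma was used to compare the 40 genes with and without TAX on the log2(FPKM + 1) scale, where a log2 fold change above 0 means a higher level after TAX. In this comparison 0 of the 40 genes had an adjusted p under 0.05, while 0.477% of all genes tested did and 0.316% did as higher genes (39 higher and 20 lower, or 47 and 48 after quantile normalization). Adjusted p-values of the 40 genes ranged from 0.362 to 0.962 (limma, Benjamini-Hochberg over 12359 genes). All 40 genes had passed the filter of 1 FPKM in 3 libraries. An unadjusted p under 0.05 was found for 7 of them, all higher after TAX, where 10.1% of all genes had one in either direction and 7.73% as higher genes. These were MYBBP1A, NIP7, UTP4, DKC1, RRP12, RRP9 and WDR43. The count was 9 without control replicate 1 or without control replicate 2, and fell to 1 without TAX replicate 1, 3 without TAX replicate 3 and 4 without control replicate 3, after quantile normalization or with a replicate block. All differences were small, since the log2 fold changes of the 40 genes lay between -0.16 and 0.27.

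Of the 40 genes, 37 had a mean above control, as did 69.1% of all genes tested, and this count was 28 after quantile normalization, where 51.6% of all genes were above control, and 34 with libraries centred on their median, where 48.7% were. The median log2 fold change was 0.13 for the 40 genes and 0.054 for all genes. Without control replicate 3 these medians were 0.074 and 0.0055, and 33 genes were above control against 52.1% of all genes. Without TAX replicate 2 the distance between the medians was 0.049 instead of 0.078. Every TAX library lay above every control library for 10 genes (25.0%), MYBBP1A, NOP58, DKC1, RRP12, UTP4, UTP20, BOP1, WDR12, NIP7 and WDR74, where 14.6% of all genes did so. For 0 genes did every TAX library lie below the controls, as for 3.34% of all genes.

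Single libraries showed where these shifts lay. Control replicate 3 held the lowest of the 6 values for 32 of the 40 genes, and TAX replicate 2 held the highest for 21 of them, against 58.0% and 24.7% of all genes. Relative to the control mean, the median of the 40 genes was 0.088, 0.018 and -0.12 on the log2 scale in the controls, against 0.099, 0.16 and 0.095 with TAX. After the median of all genes of the same library was taken off, it was 0.037, -0.029 and -0.017 in the control and 0.045, 0.10 and 0.046 in the TAX libraries, so that control replicate 1 came close to TAX replicates 1 and 3. The control libraries also differed more among themselves. For 33 of the 40 genes (82.5%) the SD of the log2 values was larger in control than in TAX-treated cells, as for 73.2% of all genes, with medians of 0.12 and 0.070 for the 40 genes.

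**Figure D3:**
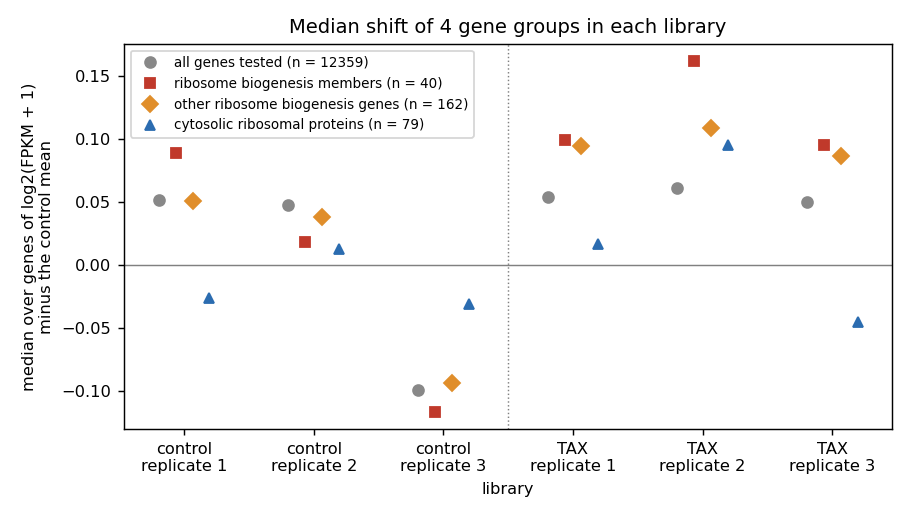
Median over genes of log2(FPKM + 1) minus the control mean in each library, for all genes tested, the 40 ribosome biogenesis members, 162 other ribosome biogenesis genes and 79 cytosolic ribosomal proteins. Control replicate 3 is low for all groups except the ribosomal proteins, which lie at -0.031 there, and TAX replicate 2 is the highest for the 40 genes at 0.16.

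Among the 3 subunits of RNA polymerase I, all had means above control after TAX, also after quantile normalization, with log2 fold changes between 0.12 and 0.14. POLR1A, the largest subunit and part of the active centre, had 7.13, 6.44 and 5.51 FPKM in the 3 controls, against 6.67, 7.19 and 7.36 FPKM with TAX. POLR1B, the second largest subunit, had 6.27, 7.05 and 4.72 FPKM in the 3 controls, against 6.42, 6.61 and 6.69 FPKM with TAX. POLR1C, a subunit shared with RNA polymerase III, had 20.2, 21.8 and 18.8 FPKM in the 3 controls, against 22.7, 22.9 and 21.7 FPKM with TAX. Control replicate 3 was the lowest library of all 3 genes, their groups overlapped, and the 3 TAX values of POLR1B lay inside its control range. Without control replicate 3 the log2 fold change of POLR1B was -0.015. The difference of POLR1A (log2 fold change 0.14, standard error 0.096) was not distinguishable from the spread between replicates.

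Of the 8 nucleolar scaffold proteins and regulators, 7 had means above control and NPM1 one below, while 4 were above control after quantile normalization and 6 with libraries centred on their median. MYBBP1A, a nucleolar protein that takes part in RNA polymerase I transcription and rRNA processing, had 18.6, 19.2 and 15.6 FPKM in the 3 controls, against 22.0, 21.3 and 21.4 FPKM with TAX. The groups of MYBBP1A did not overlap, and its log2 fold change of 0.27 (standard error 0.090) was the highest of the 40 genes. NCL had 175, 148 and 150.4 FPKM in the 3 controls, against 179.9, 164 and 166 FPKM with TAX, with control replicate 1 above 2 of the TAX libraries. The log2 fold change of NPM1 was -0.16 (standard error 0.15) and turned to 0.026 without control replicate 1. DDX21, an RNA helicase of the nucleolus, had 56.5 ± 5.21 FPKM in the controls and 64.9 ± 4.50 FPKM with TAX (SD, n = 3 each). TCOF1 (treacle, a partner of RNA polymerase I), GNL3 (nucleostemin, a GTPase), NOLC1 (a chaperone of snoRNA particles) and LYAR had log2 fold changes between 0.050 and 0.11.

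The box C/D core makes the methylations of rRNA, and its 3 genes had means above control under all 3 scalings. FBL, fibrillarin, the methyltransferase itself, had 88.4, 80.7 and 77.4 FPKM in the 3 controls, against 88.0, 91.7 and 84.1 FPKM with TAX. NOP56 had 57.7, 55.1 and 49.2 FPKM in the 3 controls, against 56.2, 64.7 and 59.2 FPKM with TAX. Both genes overlapped between the groups. Their partner NOP58 did not, with 44.1 ± 2.43 FPKM in the controls and 48.8 ± 0.961 FPKM with TAX (SD, n = 3 each).

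In the box H/ACA core, which makes pseudouridine, the 3 genes did not point one way. DKC1, dyskerin, the pseudouridine synthase, had 41.3, 45.1 and 39.5 FPKM in the 3 controls, against 48.4, 47.0 and 50.3 FPKM with TAX, without overlap (log2 fold change 0.21, standard error 0.082). NHP2 had 66.0, 51.6 and 50.04 FPKM in the 3 controls, against 51.6, 60.9 and 50.7 FPKM with TAX, where 1 library of each group stood above the rest. The log2 fold change of NHP2 was -0.032 (standard error 0.12) and turned to 0.092 without control replicate 1, to 0.0033 without TAX replicate 1 and to 0.015 without TAX replicate 3. GAR1 had 16.9 ± 0.884 and 16.7 ± 1.45 FPKM (SD, n = 3 each). These were 2 of the 3 genes of the whole group with a mean below control.

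The 10 genes of small subunit processing and assembly all had means above control (9 of them after quantile normalization). Their median log2 fold change was 0.17. Of the 7 genes with an unadjusted p under 0.05 (limma), 4 were among them, where 10.1% of all genes had one. This count stayed at 4 without control replicate 1 and was 3 without control replicate 2. It was 2 after quantile normalization, with libraries centred, with a replicate block or without TAX replicate 2. It fell to 1 without control replicate 3, TAX replicate 1 or TAX replicate 3. The count thus depended on single libraries and on scaling. RRP12, which acts in maturation and export of the subunits, had 10.6, 10.7 and 7.94 FPKM in the 3 controls, against 11.8, 11.2 and 12.4 FPKM with TAX. Its groups did not overlap, but control replicate 3 lay well below the other controls (log2 fold change 0.26, standard error 0.11). UTP4, which belongs to the first complex to join the growing precursor, had 31.2, 31.5 and 26.2 FPKM in the 3 controls, against 33.0, 36.4 and 36.1 FPKM with TAX, again without overlap (log2 fold change 0.24, standard error 0.093). GENCODE 29 places UTP4 in overlap with SNTB2 on the same strand and CHTF8 on the other, so its reads are of less certain origin. WDR43, from the same early complex, had 37.6, 35.4 and 32.3 FPKM in the 3 controls, against 42.4, 37.0 and 41.9 FPKM with TAX, with TAX replicate 2 inside the control range. NOP14 had 25.2, 21.4 and 18.7 FPKM in the 3 controls, against 22.0, 22.9 and 23.0 FPKM with TAX, all 3 within the control range. Its log2 fold change of 0.067 turned to -0.033 without control replicate 3 and to -0.0055 after quantile normalization. RRP9, a protein of the snoRNA particle that starts processing, had 6.33 ± 0.486 and 7.66 ± 1.10 FPKM (SD, n = 3 each). UTP20, IMP3, IMP4, RCL1 and BYSL had log2 fold changes between 0.098 and 0.19.

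**Figure D4:**
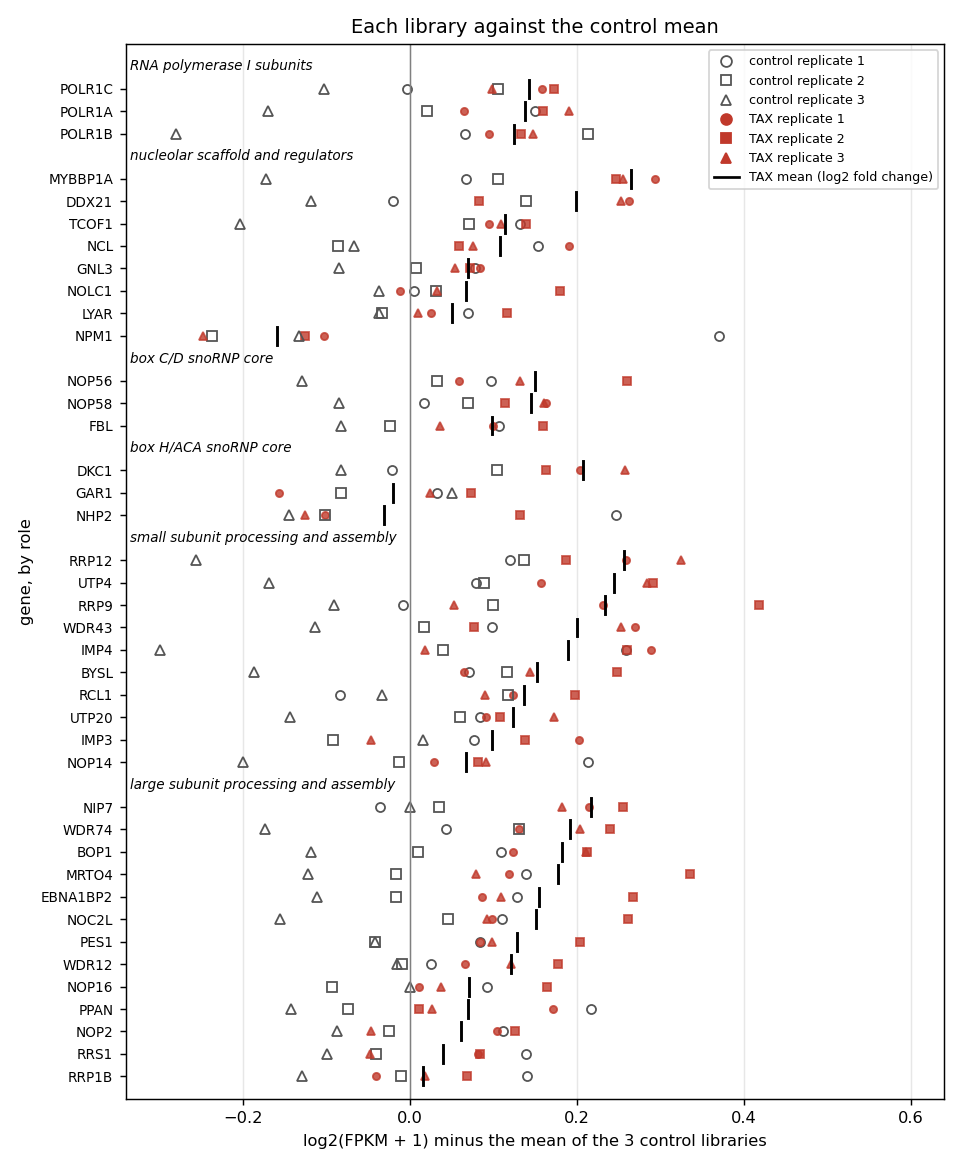
Each library's log2(FPKM + 1) minus the mean of the 3 control libraries, for the 40 genes by role (controls open grey, TAX filled red, black bar the log2 fold change). Control replicate 3 (open triangles) is the lowest library of 32 genes, and for 10 genes, MYBBP1A and NIP7 among them, the 3 TAX libraries lie above all controls.

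The 13 genes of large subunit processing and assembly also had means above control, with log2 fold changes between 0.016 and 0.22, although 8 of them were above control after quantile normalization and 11 with libraries centred. NIP7, which acts in maturation of the large subunit rRNA, had 23.6, 24.9 and 24.2 FPKM in the 3 controls, against 28.3, 29.1 and 27.6 FPKM with TAX. The replicates of NIP7 lay closest together among the 40 genes, with an SD of 0.036 on the log2 scale within groups, and its groups did not overlap (log2 fold change 0.22, standard error 0.074). NIP7 has 3 numbered pseudogenes in GENCODE 29 and overlaps 3 coding genes on the other strand. Among these is COG8, with means of 14.25 FPKM without and 14.95 FPKM with TAX, so the reads of NIP7 are also of less certain origin. NOC2L, on chromosome 1 (944204 to 959309), had 33.1, 31.6 and 27.4 FPKM in the 3 controls, against 32.9, 36.9 and 32.7 FPKM with TAX. EBNA1BP2 had 33.2, 29.9 and 28.0 FPKM in the 3 controls, against 32.2, 36.6 and 32.8 FPKM with TAX. In both genes TAX replicate 2 was the highest library and control replicate 1 lay above the other 2 TAX libraries. RRP1B had 22.9, 20.5 and 18.8 FPKM in the 3 controls, against 20.1, 21.8 and 21.0 FPKM with TAX, within the control range. Its log2 fold change of 0.016 (standard error 0.088) was -0.057 after quantile normalization, -0.042 with libraries centred on their median and -0.049 without control replicate 3.

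The PeBoW genes PES1, BOP1 and WDR12 had TAX means 1.10, 1.14 and 1.11 times those of the controls, and the groups of BOP1 and WDR12 did not overlap. WDR74, a partner of the assembly ATPase NVL, had 20.7 ± 2.31 and 23.7 ± 0.939 FPKM without overlap (SD, n = 3 each). MRTO4, which holds the place of a ribosomal stalk protein, NOP2, an rRNA methyltransferase, NOP16, PPAN and RRS1 overlapped between the groups, with log2 fold changes between 0.039 and 0.18. PPAN on chromosome 19 shares its strand with the read-through gene PPAN-P2RY11 and with P2RY11, whose values went opposite ways. PPAN-P2RY11 had a mean of 6.62 FPKM without and 9.94 FPKM with TAX, and P2RY11 had 3.68 and 0.711 FPKM, so how reads were divided among the 3 names could not be settled from the values. In all, 15 of the 40 genes overlap a coding gene on the other strand, and whether reads were counted by strand is not given in the sources used here.

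The level of a gene and its change were only loosely related over the 40 genes, which share the same libraries. Pearson's r between the control level on the log2 scale and the log2 fold change was -0.44, and Spearman's rho was -0.23. The same control values enter both quantities, so their spread by itself pushes such correlations below 0. NPM1 had the highest level and the lowest log2 fold change, -0.16, which was 0.026 without control replicate 1. How far the correlations rest on NPM1 was not tested. In bulk RNA, fewer cells of a type and less RNA per cell cannot be told apart.

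To see how the rest of the pathway behaved, 162 other ribosome biogenesis genes in 6 lists, none of them in the group of 40, were read from the same fit. Of these, 0 had an adjusted p under 0.05 (limma) and 17 an unadjusted p under 0.05, all of them higher, or 10.5% beside the 10.1% of all genes. This count was 26 without control replicate 2, 9 without TAX replicate 2 and 6 without TAX replicate 1 or 3. Their median log2 fold change was 0.10, with 147 genes above control (90.7%, beside 69.1% of all genes) and 15 below, and with 117 above control after quantile normalization and 118 with libraries centred. Without control replicate 3 the median was 0.052. Every TAX library lay above every control library for 47 of the 162 genes (29.01%) and below for 0, beside 14.6% and 3.34% of all genes. The median was 0.11 for 12 other genes of RNA polymerase I transcription, 0.097 for 48 of the small subunit, 0.11 for 48 of the large subunit, 0.10 for 11 of snoRNA particles, 0.081 for 24 of the exosome and RNase MRP and 0.073 for 19 of RNA polymerase III. The gene with the smallest p was WDR36 of the small subunit processome, with 9.15, 11.0 and 9.74 FPKM in the 3 controls, against 12.8, 11.4 and 12.4 FPKM with TAX (log2 fold change 0.27, adjusted p = 0.341 from limma). RRN3, the factor that brings RNA polymerase I to its promoter, had 22.1 ± 2.17 and 25.8 ± 0.595 FPKM (SD, n = 3 each). URB2 had 6.97 ± 0.727 and 8.48 ± 0.474, SNU13 of the box C/D particle 23.4 ± 0.525 and 27.4 ± 2.54, EXOSC7 of the exosome 17.0 ± 0.968 and 20.7 ± 2.42, and GTF3C4 12.5 ± 0.704 and 14.4 ± 0.504 FPKM (SD, n = 3 each), with adjusted p from 0.393 to 0.449 (limma).

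**Figure D5:**
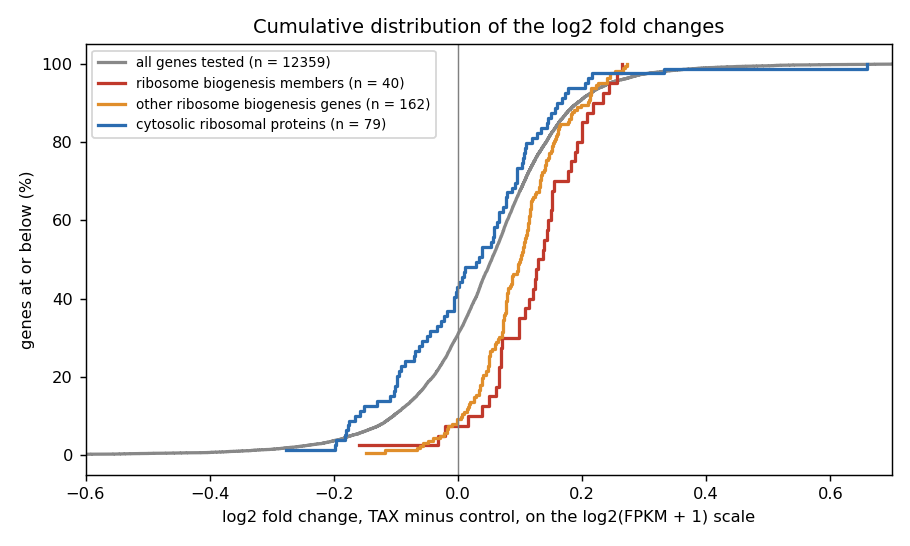
Cumulative share of genes (%) by log2 fold change after TAX, for all genes tested, the 40 ribosome biogenesis members, 162 other ribosome biogenesis genes and 79 cytosolic ribosomal proteins. The medians are 0.054, 0.13, 0.10 and 0.035, and the curve of the 40 genes ends at 0.27. The 37 members above 0 became 28 after quantile normalization.

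The proteins of the ribosome itself were looked at in the same way. Of 79 cytosolic ribosomal protein genes, 45 had means above and 34 below control, with a median of 0.035, and 34 were above control under both other scalings. An adjusted p under 0.05 was found for 0 of them (limma) and an unadjusted one for 2, or 7 without control replicate 2 and 6 after quantile normalization. RPLP1, a stalk protein, had the smallest p, with 242, 408 and 634 FPKM in the 3 controls, against 645, 644 and 595 FPKM with TAX, so that control replicate 3 lay among the TAX libraries (adjusted p = 0.438 from limma). The difference between the 40 genes and the ribosomal proteins was not tested.

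MYC, the factor by which the 40 genes are known, had 30.7, 38.5 and 25.2 FPKM in the 3 controls, against 40.03, 34.03 and 36.4 FPKM with TAX. Its groups overlapped, with 31.4 ± 6.70 and 36.8 ± 3.02 FPKM (SD, n = 3 each) and a log2 fold change of 0.24 with a standard error of 0.13 (limma, adjusted p = 0.566). The paper on these cells reports the opposite direction, with lower c-Myc after TAX in DU145 by real-time qPCR and by western blotting. MYC was not called in either direction in these libraries, and the reason for the disagreement was not tested. Control replicate 3 was the lowest library for MYC, as it was for 32 of the 40 genes and for 58.0% of all genes tested.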

How the data were processed

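RNA of 3 control and 3 TAX-treated DU145 cultures was sequenced. According to the submitters' processing notes HISAT2 2.2.0, StringTie 2.1.2 and GRCh38 were used, while the annotation and filters are not given in the sources used here. Gene values, which the authors deposited for each library, were read as FPKM, since they are decimals whose totals differ between libraries, although TPM could not be told apart with certainty. Control replicates 1 and 3 shared 332 genes with values above 0 and under 0.03, and at most 5.72% of their log2 ratios fell in one bin of 0.1, so steps of whole reads were not found, no count test was run and depth is unknown.

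Starting with these deposited FPKM values, a fit of log2(FPKM + 1) was made for 12359 genes, those reaching 1 FPKM in 3 or more libraries, with limma 3.58.1 (R 4.3.3, eBayes with trend, no covariate) and adjusted by the Benjamini-Hochberg method over all of them. On this scale the change of a low gene is understated. The fit was tested on simulated data, with changes that were all larger than those of the 40 genes. That test does not tell whether changes of their size would be found. The 40 genes, their roles and the other lists were chosen with earlier results of these data known. Values per library are given for the 2 most abundant genes of each role and those with the highest and lowest log2 fold change, and each other list is represented by its gene with the smallest p, since none passed. The ratios within complexes, the ETS motif and the window of 50 bases were chosen after values were seen. Positions and snoRNA genes came from GENCODE 29 (GRCh38) by name, promoters from RefSeq (GRCh38.p14). A list of 13 non-coding snoRNA host genes was not analysed here. Alternatives were another pseudocount (0.1), no filter or one at 5 FPKM, quantile normalization, centred libraries, no trend, a replicate block and leaving out each library.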

Additional observations from a re-analysis of the deposited data

How the results depend on the processing

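At an adjusted p under 0.05, 0 of the 40 genes were called in the comparison as reported, and 0 of those tested in each of the 13 alternatives (39 with the filter at 5 FPKM, which drops WDR12). The same held for the other ribosome biogenesis genes (162, or 148 with that filter) and the ribosomal protein genes. The count over all genes, 59, was 1 without a filter on low values, 95 after quantile normalization, 96 with libraries centred on their median, 26 with the replicate block and 19 to 40 with one library left out. The median log2 fold change of the 40 genes stayed above 0 in these alternatives, between 0.074 and 0.18. Of 234 log2 fold changes of the 18 genes described by library, 223 kept their direction. Changing the filter, leaving out the trend or adding the replicate block cannot move a log2 fold change, so part of the 223 was fixed in advance. Leaving out one library moved POLR1B between -0.015 (without control replicate 3) and 0.23, NPM1 between -0.28 and 0.026, NHP2 between -0.11 and 0.092, NOP14 between -0.033 and 0.17 and RRP1B between -0.049 and 0.086. NPM1 turned to 0.026 and NHP2 to 0.092 without control replicate 1, and NHP2 to 0.0033 and 0.015 without TAX replicates 1 and 3. NOP14 turned to -0.0055 after quantile normalization and -0.033 without control replicate 3. RRP1B turned to -0.057 after quantile normalization, -0.042 after centring, -0.049 without control replicate 3 and -0.011 without TAX replicate 2. The causes were not tested. The E-box share of 54.5% was 18.2% in the 250 bases before the start and 39.4% in the 50 bases from it on, where most of these E-boxes lie.

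The labels give both groups the same replicate numbers. The deviations of libraries with the same number had correlations of -0.12, -0.33 and -0.17 over genes, and those with different numbers between -0.17 and 0.29. Deviations from a mean of 3 libraries depend on each other, so whether libraries with the same number were handled together cannot be told. With a replicate block 4 instead of 7 of the 40 genes had an unadjusted p under 0.05. As depth is unknown, no counting error can be given. The spread between the 3 libraries of a group was about 0.11 on the log2 scale for these genes. Even the largest log2 fold change of the 40 genes, 0.27 for MYBBP1A, had an adjusted p of 0.362 (limma). Changes of this size or smaller could thus be missed here, and 0 called genes does not mean that there was no change.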
